A study of Mus musculus with 9 samples.

Results

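The interferon-gamma-inducible GTPases were followed in the large intestine of *Eeyore*, *Winnie* and wild-type mice. The family was taken as 10 named genes (*Gbp2*, *Gbp3*, *Gbp4*, *Gbp6*, *Gbp7*, *Igtp*, *Iigp1*, *Irgm1*, *Irgm2* and *Tgtp1*), each through the array probe sets annotated to that gene alone. By this rule 8 of the 10 genes were measured, on 12 probe sets, among 18193 genes of the array with a probe set of their own. The probe sets of *Gbp4* and *Tgtp1* are annotated to a second gene as well, and these members were not analysed here.

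In *Eeyore* mice Muc2, the secreted mucin of goblet cells, has proline in place of serine in its C-terminal D4 domain, on a background labelled as C57BL/6 mixed with NOD-SCID. In *Winnie* mice, of strain C57BL/6, it has tyrosine in place of cysteine in its D3 domain, near the N terminus. Both alleles come from N-ethyl-N-nitrosourea mutagenesis of C57BL/6 founders, and C57BL/6 mice were the wild-type. Each group held 3 mice aged 8 wk, and for each mouse equal amounts of RNA from its proximal and distal large intestine were pooled on 1 array. All 9 mice are labelled male, but in both mutant strains the X-inactivation transcript *Xist* was lower and the Y-linked *Eif2s3y* and *Kdm5d* were higher than in wild-type mice. Sex, and in *Eeyore* mice the strain background, therefore cannot be told apart from the *Muc2* allele in any comparison with wild-type. Between *Eeyore* and *Winnie* mice the strain background cannot be told apart from the allele either.

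These GTPases are part of cell-autonomous defence. Interferon-gamma, released mainly by T and NK cells, acts through its receptor and the kinases Jak1 and Jak2, and makes epithelial cells and macrophages produce 2 families of large GTPases, the immunity-related GTPases (IRG) and the guanylate-binding proteins (GBP). Irgm1, Irgm2 and Igtp (also called Irgm3) sit on the cell's own membranes and keep the effector IRG proteins, such as Iigp1, switched off there. The effectors and the GBP proteins load onto vacuoles that hold bacteria or parasites and break them open. Promoter elements known from interferon-inducible genes are the gamma-activated site (GAS) and the interferon-stimulated response element (ISRE), which interferon-regulatory factors bind.

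Promoter windows of 300 bases (250 before to 50 after the gene start, from RefSeq, build GRCm38.p6) were at hand for 7 of the 10 genes. The ISRE core was searched as GAAANNGAAA or, read on the other strand, TTTCNNTTTC, and was found in 7 of 8 windows (*Gbp3* has 2 windows), so that each of the 7 genes had at least 1 window with it. Of all 32851 windows of the table, 3.44% held it. The GAS was searched as TTCNNNGAA, which reads the same on both strands, and was found in 4 of the 8 windows, against 8.3% of all windows. The 6 stretches that follow, each of 120 bases within the window and written 5′ to 3′ along the gene, are shown because their genes were measured on the arrays. Capitals mark every ISRE core and GAS match.
Irgm1, chr11:48871421-48871540, minus strand: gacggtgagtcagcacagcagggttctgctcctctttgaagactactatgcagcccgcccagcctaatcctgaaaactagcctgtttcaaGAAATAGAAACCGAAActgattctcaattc
Irgm2, chr11:58214857-58214976, plus strand: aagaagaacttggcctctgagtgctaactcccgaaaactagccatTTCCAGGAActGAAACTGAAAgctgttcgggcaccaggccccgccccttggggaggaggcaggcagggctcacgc
Igtp, chr11:58199436-58199555, plus strand: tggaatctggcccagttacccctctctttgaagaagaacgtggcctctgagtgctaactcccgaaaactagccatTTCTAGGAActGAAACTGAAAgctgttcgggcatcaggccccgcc
Gbp2, chr3:142620543-142620662, plus strand: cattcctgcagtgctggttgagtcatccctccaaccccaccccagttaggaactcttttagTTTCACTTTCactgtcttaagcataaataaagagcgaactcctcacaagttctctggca
Gbp3, chr3:142559924-142560043, plus strand: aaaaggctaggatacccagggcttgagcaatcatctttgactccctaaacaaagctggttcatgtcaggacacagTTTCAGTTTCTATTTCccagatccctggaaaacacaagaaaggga
Gbp7, chr3:142530216-142530335, plus strand: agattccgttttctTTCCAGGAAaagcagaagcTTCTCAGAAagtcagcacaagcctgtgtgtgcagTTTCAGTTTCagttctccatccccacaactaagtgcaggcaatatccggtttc

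In *Igtp* and *Irgm2* the GAS began 11 bases before the ISRE core, and so it did in *Tgtp1*. These windows of *Igtp* and *Irgm2* share an unbroken run of 61 bases. That run lies outside both elements, since the printed stretches differ inside the GAS and again soon after the ISRE core. In *Gbp7*, by contrast, the nearer of 2 GAS matches began 34 bases before the core, which itself began 53 bases before the gene start. The cores of *Gbp3* and *Irgm1* are each a pair of overlapping matches, and *Gbp2*, *Gbp3* and *Irgm1* had no GAS match in their windows. A match to these letters is a description of the reference sequence and shows no binding.

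Values are array signals on the linear scale of the deposited table, where each array's trimmed mean is 500. Changes are log2 fold changes from limma with their standard error (SE), and a gene was called when its p, adjusted by Benjamini-Hochberg over all 22519 tested probe sets, was under 0.05. The median signal of all probe sets was 95.8 to 99.5 in *Eeyore*, 88.1 to 95.4 in *Winnie* and 118.6 to 128.9 in wild-type mice. The brightest probe set of each of the 8 GTPases was above these medians in every mouse.

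*Irgm1*, a regulator that protects host membranes and also takes part in autophagy, was higher in both strains. Its signals were 1993, 3497 and 4228 in *Eeyore* mice 1 to 3, 2320.15, 2633 and 1792 in *Winnie* mice, and 1201, 1171 and 1459 in wild-type mice. No mutant mouse of either strain overlapped with wild-type mice. The log2 fold change was 1.28 in *Eeyore* (SE 0.24, limma adjusted p = 0.00221) and 0.81 in *Winnie* mice (SE 0.24, limma adjusted p = 0.0309). In *Winnie* mice this call was lost without the intensity trend of the variance (limma adjusted p = 0.0793) and with each gene's probe sets averaged (0.0503). Leaving out *Winnie* mouse 1 or 2 or wild-type mouse 1 or 2 also lost it (limma adjusted p up to 0.109).

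*Igtp*, the second regulator, gave 1427, 4988 and 6592 in *Eeyore* mice, 2591, 3618 and 2166 in *Winnie* mice, and 1905, 1345 and 1355 in wild-type mice. All *Winnie* mice lay above all wild-type mice, whereas *Eeyore* mouse 1 lay among the wild-type values. *Igtp* rose in *Eeyore* mice (log2 fold change 1.25, SE 0.43, limma adjusted p = 0.0465), and its change in *Winnie* mice did not pass (0.85, SE 0.43, limma adjusted p = 0.178). The call in *Eeyore* mice was lost with quantile normalization (limma adjusted p = 0.0582), without the intensity trend of the variance (0.106), with the robust variance model (0.153), with the compared groups alone (0.0682), and on leaving out any 1 mouse other than *Eeyore* mouse 1 or *Winnie* mouse 2 (up to 0.163). Averaging the probe sets of each gene lost it as well (limma adjusted p = 0.0746). *Irgm2*, the third regulator, gave 1297, 2342 and 3985 in *Eeyore* mice, 2117, 2233 and 1883 in *Winnie* mice, and 1272, 1645 and 1449 in wild-type mice. *Winnie* and wild-type mice did not overlap here, while *Eeyore* mouse 1 was at the wild-type level. Its log2 fold changes of 0.67 in *Eeyore* (SE 0.30, limma adjusted p = 0.11) and 0.52 in *Winnie* mice (SE 0.30, limma adjusted p = 0.231) did not pass.

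*Iigp1*, the effector IRG protein that coats parasite vacuoles, had the largest change of the 8 genes in *Eeyore* mice and, with *Gbp2*, one of the 2 largest in *Winnie* mice. It gave 2051, 8835 and 12936 in *Eeyore* mice, 4303, 5351 and 3733 in *Winnie* mice, and 1298, 1252 and 1198 in wild-type mice. The groups were fully separated from wild-type mice, which spanned only 1.08-fold. The change was 4.94-fold in *Eeyore* (log2 2.30, SE 0.48, limma adjusted p = 0.00438) and 3.54-fold in *Winnie* mice (log2 1.82, SE 0.48, limma adjusted p = 0.0197). In *Winnie* mice this call was lost without the intensity trend (limma adjusted p = 0.0613) and with the robust variance model (0.1). Leaving out *Winnie* mouse 2 or wild-type mouse 1 or 2 also lost it (limma adjusted p up to 0.068). The dimmer probe set of *Iigp1* changed by 2.25 and 1.75 on the log2 scale in *Eeyore* and *Winnie* mice and was called in both.

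*Gbp2*, a guanylate-binding protein that attaches to pathogen vacuoles through a lipid anchor, gave 3478, 8507 and 20464 in *Eeyore* mice, 7250.2, 9552 and 5763 in *Winnie* mice, and 2361, 2470.4 and 1706 in wild-type mice. Every mutant mouse was above every wild-type mouse. *Gbp2* was 3.93-fold higher in *Eeyore* (log2 1.98, SE 0.46, limma adjusted p = 0.00761) and 3.42-fold higher in *Winnie* mice (log2 1.78, SE 0.46, limma adjusted p = 0.0176). Its second probe set gave 2.01 and 1.85 in *Eeyore* and *Winnie* mice, both called. For the brightest probe set, the *Winnie* call was lost without the intensity trend (limma adjusted p = 0.0576) and with the robust variance model (0.0953). Leaving out *Winnie* mouse 2 or wild-type mouse 3 also lost it (limma adjusted p up to 0.0668). The study itself names *Gbp2* from these samples and plots *Igtp*, *Iigp1* and *Irgm2* among interferon-inducible genes of *Winnie* mice, so their changes are not independent evidence of the direction of the list.

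*Gbp3*, another guanylate-binding protein, was called in *Eeyore* mice and not in *Winnie* mice. It gave 477, 1301 and 1551 in *Eeyore* mice, 402, 589 and 569 in *Winnie* mice, and 425, 482 and 498 in wild-type mice. *Eeyore* mice 2 and 3 stood above all others, and *Winnie* mice overlapped with wild-type mice. The log2 fold change was 1.08 in *Eeyore* (SE 0.35, limma adjusted p = 0.0362) and 0.13 in *Winnie* mice (SE 0.35, limma adjusted p = 0.814). The call in *Eeyore* mice was lost without the intensity trend (limma adjusted p = 0.0807), with the robust variance model (0.0571), with the compared groups alone (0.0536), and without *Eeyore* mouse 2 or 3 or any wild-type mouse (up to 0.131). Averaging the probe sets of each gene lost it as well (limma adjusted p = 0.0564).

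*Gbp7*, known in mouse macrophages for helping to assemble the NADPH oxidase on vacuoles, gave 894, 1763 and 2199 in *Eeyore* mice, 1416, 1490.3 and 1094 in *Winnie* mice, and 653, 904 and 831 in wild-type mice. *Winnie* mice were all above wild-type mice, and *Eeyore* mouse 1 was just under the highest of them. It rose in *Eeyore* mice (log2 fold change 0.94, SE 0.27, limma adjusted p = 0.0233), and the change in *Winnie* mice did not pass (0.74, SE 0.27, limma adjusted p = 0.0728). A second, dimmer probe set of *Gbp7* passed in neither strain, at 0.47 in *Eeyore* and -0.10 in *Winnie* mice. The call in *Eeyore* mice was lost with the mean over both probe sets (limma adjusted p = 0.0833), without the intensity trend (0.0607), and without *Eeyore* mouse 2 or 3 or wild-type mouse 1 (up to 0.0851).

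*Gbp6* moved least in *Eeyore* mice. It gave 418, 933 and 1290.04 in *Eeyore* mice, 696, 582 and 624 in *Winnie* mice, and 678, 517 and 492 in wild-type mice. *Eeyore* mouse 1 had the lowest of the 9 signals and mouse 3 the highest. Neither log2 fold change passed, at 0.52 in *Eeyore* (SE 0.32, limma adjusted p = 0.245) and 0.18 in *Winnie* mice (SE 0.32, limma adjusted p = 0.717), and its dimmer probe set gave 0.74 and -0.19.

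**Figure D1:**
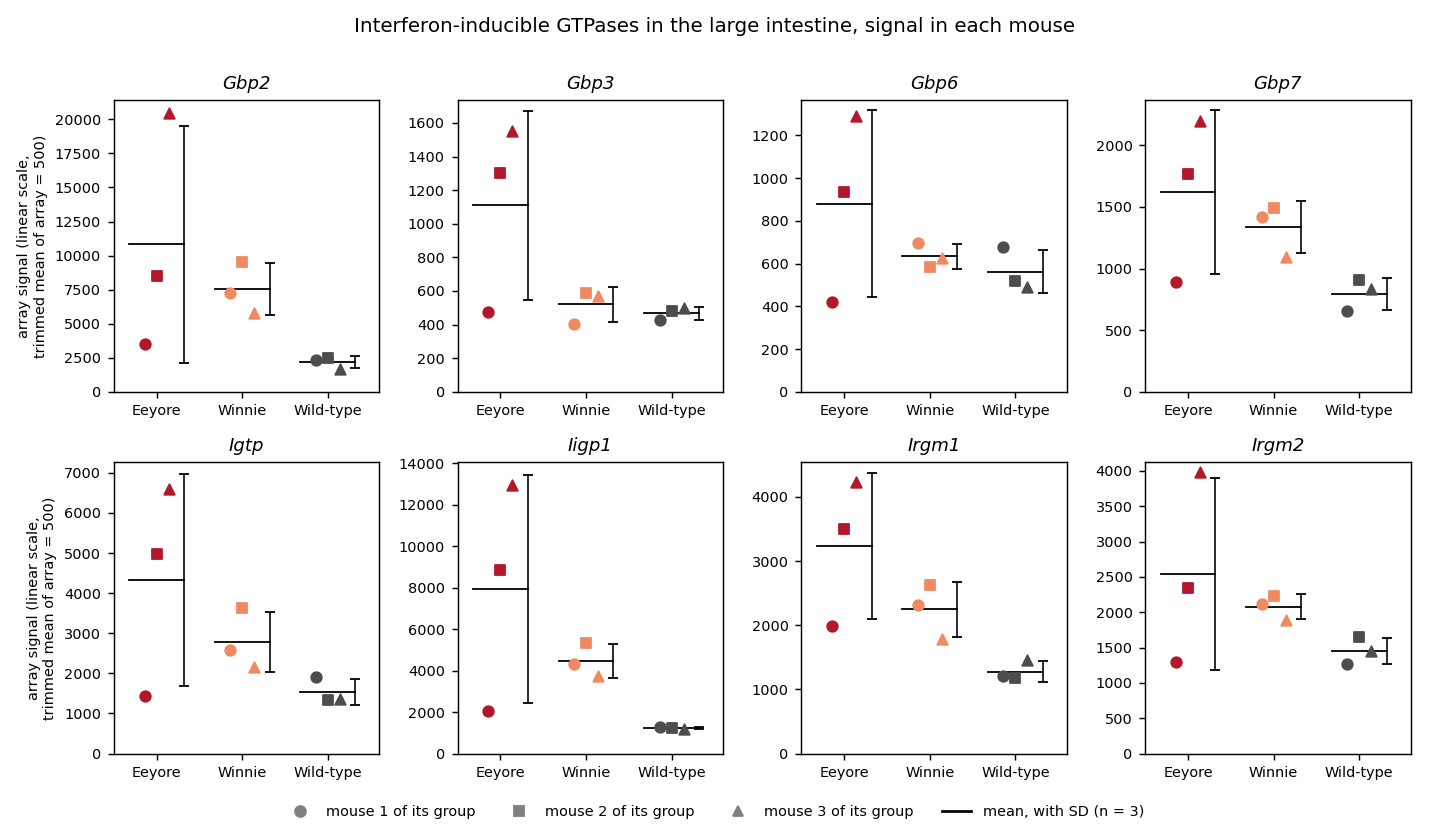
Array signal (linear vertical axis from 0, its scale set for each gene) of the 8 GTPases in each of 3 *Eeyore*, 3 *Winnie* and 3 wild-type mice, with the symbol giving the mouse number, the line the group mean and the bar the SD. *Eeyore* mouse 1 is the lowest *Eeyore* mouse and mouse 3 the highest in all 8 panels, and for *Iigp1* all mutant mice (2051 and above) lie over the wild-type mice (1298 and below).

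Across the family, 6 of 8 GTPases passed the test as higher and 0 as lower in *Eeyore* mice, where 14.0% of the 11453 tested genes were higher and 16.6% lower. In *Winnie* mice 3 of 8 (*Gbp2*, *Iigp1* and *Irgm1*) were higher and 0 lower, where 11.3% of tested genes were higher and 11.9% lower. The median log2 fold change of the 8 genes was 1.17 in *Eeyore* and 0.77 in *Winnie* mice, against -0.04 and -0.05 over all tested genes. All *Eeyore* mice were above all wild-type mice for 3 of 8 GTPases, a separation seen in 20.7% of tested genes, and all *Winnie* mice were above for 6 of 8, against 19.7%. For 0 of 8 were all *Eeyore* or all *Winnie* mice below, which 25.3% and 24.3% of tested genes showed in *Eeyore* and *Winnie* mice. Both strains were compared with the same 3 wild-type mice. With 3 mice against 3, an exact two-sided permutation test of a single gene could not go below p = 0.1, and nothing says whether the mice shared litters or cages.

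**Figure D2:**
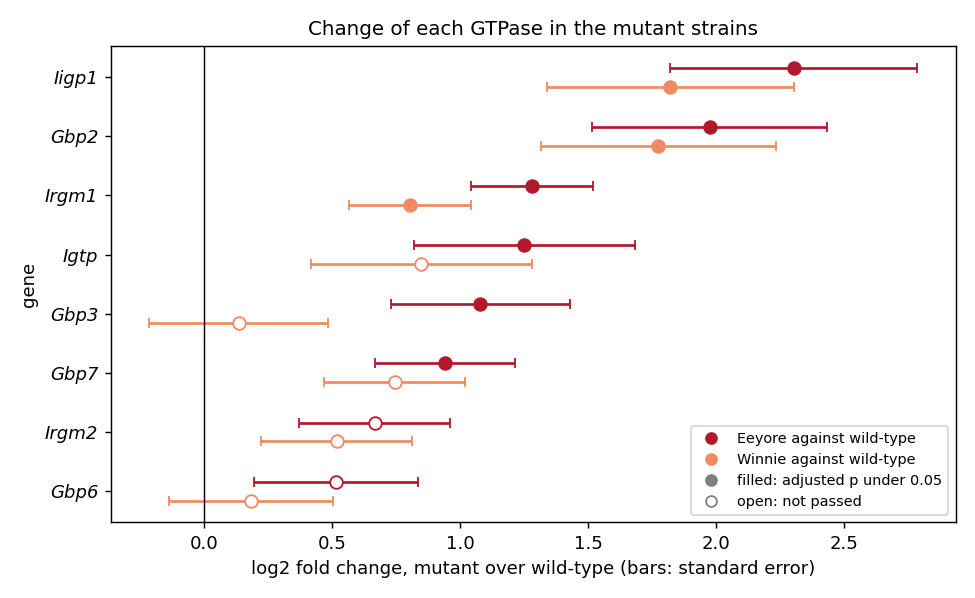
Log2 fold change (horizontal axis) of the 8 GTPases in *Eeyore* and *Winnie* against wild-type mice, with bars for the SE of the fit and filled points for a limma adjusted p under 0.05. Every point lies above 0, from 0.52 to 2.30 in *Eeyore* and from 0.13 to 1.82 in *Winnie* mice.

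The mutant strains, which differ in labelled background as well as in the *Muc2* allele, were also set against each other. Of the 8 GTPases, 0 passed the test between *Eeyore* and *Winnie* mice with limma, and 1 (*Gbp3*) had an unadjusted p under 0.05; 1.29% of tested genes were higher in *Eeyore* and 1.3% lower. The strains overlapped for all 8 genes, where all *Eeyore* mice were above all *Winnie* mice in 10.2% of tested genes and below them in 10.7%. The *Gbp3* difference was 0.94 (95% interval 0.18 to 1.70, limma adjusted p = 0.221). For *Iigp1* it was 0.48 (95% interval -0.57 to 1.53), and for *Irgm1* 0.48 (95% interval -0.04 to 0.99), both with *Eeyore* over *Winnie*. The smallest difference was 0.15 for *Irgm2* (95% interval -0.50 to 0.79). These intervals leave room for differences of more than 1.5-fold in either strain's favour for *Gbp2* (-0.80 to 1.20) and show no equality.

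The *Eeyore* mice differed widely among themselves. *Eeyore* mouse 1 had the lowest signal of its strain in 8 of 8 GTPases, mouse 2 the middle one in 8 of 8 and mouse 3 the highest in 8 of 8. Measured from the wild-type mean, the median over the 8 genes was 0.10 in mouse 1, 1.47 in mouse 2 and 1.73 in mouse 3 on the log2 scale. *Winnie* mice 1 to 3 stood at 0.81, 0.98 and 0.48. *Eeyore* mouse 1 was below every *Winnie* mouse in 6 of 8 genes and above every wild-type mouse in 3 (*Gbp2*, *Iigp1* and *Irgm1*), whereas *Eeyore* mouse 3 was above every *Winnie* mouse in 8.

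The highest *Eeyore* mouse exceeded the lowest by 6.31-fold for *Iigp1*, 5.88-fold for *Gbp2*, 4.62-fold for *Igtp* and 2.12-fold for *Irgm1*, the least. The median range among *Eeyore* mice was 1.66 log2 units over the GTPases and 0.40 over all tested genes, and it was larger than the range of 96.5% of tested genes. In *Winnie* mice the median range of the GTPases was 0.54 (larger than 68.2% of tested genes) and in wild-type mice 0.42 (61.0%). The median over all tested genes lay at -0.04, -0.02 and -0.05 in *Eeyore* mice 1 to 3.

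Mouse 1 was picked out after its values were seen, and since it was the lowest of its strain in every GTPase, leaving it out had to raise the *Eeyore* means and narrow their spread. The counts without it are therefore a description. Then 8 of 8 GTPases were called higher in *Eeyore* than in wild-type mice (12.6% of tested genes were higher), with *Irgm2* at 1.08 and *Gbp6* at 0.98. Against *Winnie* mice 4 of 8 (*Gbp3*, *Iigp1*, *Igtp* and *Irgm1*) were called higher, where 2.4% of tested genes were. In *Winnie* mice 5 of 8 were called without *Eeyore* mouse 1, *Gbp7* and *Igtp* having been added at unchanged fold changes, with the shared spread estimated without that mouse (11.9% of tested genes were higher). Without *Eeyore* mouse 3, the highest, 6 of the 8 differences between *Eeyore* and *Winnie* mice turned negative and 0 were called by limma. Without *Eeyore* mouse 2, *Eeyore* mouse 3 or wild-type mouse 1, by contrast, 3 of 8 were called in *Eeyore* mice, and without *Winnie* mouse 2 none of the 8 was called in *Winnie* mice.

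Other genes that interferon-gamma induces followed a like order among the *Eeyore* mice. Of 22 listed targets 20 were tested, and 10 were higher and 0 lower in *Eeyore* mice (median log2 fold change 1.07), while 2 were higher and 1 lower in *Winnie* mice (median 0.36). Over all tested genes 14.0% were higher and 16.6% lower in *Eeyore* mice (median -0.04), and 11.3% and 11.9% in *Winnie* mice (median -0.05). The *Winnie* count of 2 is near that share. The median of the targets in single mice was 0.01, 1.34 and 1.54 in *Eeyore* mice 1 to 3, and 0.12, 0.67 and 0.13 in *Winnie* mice. Without *Eeyore* mouse 1 the count in *Eeyore* mice was 18, and without *Eeyore* mouse 3 or wild-type mouse 3 it was 6. In *Winnie* mice the count of 2 was 5 without *Eeyore* mouse 1 and 1 without *Winnie* mouse 2 or wild-type mouse 2. Between the strains 2 of 20 were higher and 0 lower in *Eeyore* than in *Winnie* mice (10 and 0 at an unadjusted p under 0.05). Over all tested genes 1.29% were higher and 1.3% lower. The count of 2 was 11 without *Eeyore* mouse 1 and 1 without any other single mouse.

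*Ido1*, which breaks down tryptophan, gave 464, 9931 and 17474 in *Eeyore* mice, 761, 1977 and 1190.5 in *Winnie* mice, and 654, 422 and 324 in wild-type mice. *Eeyore* mouse 1 was within the wild-type values, and the other 2 were above all other mice. The log2 fold change was 3.27 in *Eeyore* (SE 0.99, limma adjusted p = 0.0268) and 1.44 in *Winnie* mice (SE 0.99, limma adjusted p = 0.32). *Cxcl9*, a chemokine for activated T cells, rose by 2.88 in *Eeyore* mice (SE 0.60, limma adjusted p = 0.00432), and its change of 1.64 in *Winnie* mice did not pass (limma adjusted p = 0.0724), although all 3 were above wild-type mice.

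The targets that differed between the strains, *Psmb9* and *B2m*, serve antigen presentation. *Psmb9*, an interferon-inducible proteasome subunit, gave 1804, 8611 and 9993 in *Eeyore* mice, 1145, 1537 and 1215 in *Winnie* mice, and 1419.6, 1105 and 1122 in wild-type mice. It rose in *Eeyore* mice by 2.15 (limma adjusted p = 0.0058) and gave 0.09 in *Winnie* mice (limma adjusted p = 0.91). The difference between *Eeyore* and *Winnie* mice was itself called, at 2.06 (limma adjusted p = 0.0444). *B2m*, the light chain of class I molecules, fell in *Winnie* mice by 0.66 (limma adjusted p = 0.0239), and no target was called lower there without *Winnie* mouse 1 or 3 or wild-type mouse 1 or 2. It differed between *Eeyore* and *Winnie* mice by 1.11 (limma adjusted p = 0.00626). *Cd74*, the chaperone of class II molecules, rose in *Eeyore* mice by 1.71 (limma adjusted p = 0.0189), with 6538 in mouse 1 against 29689 and 35753 in mice 2 and 3. *Wars*, the tryptophan tRNA synthetase, and *Batf2*, a transcription factor, were called in both strains: *Wars* rose by 1.19 in *Eeyore* and 1.40 in *Winnie* mice, and *Batf2* by 1.39 and 1.19 in *Eeyore* and *Winnie* mice.

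**Figure D3:**
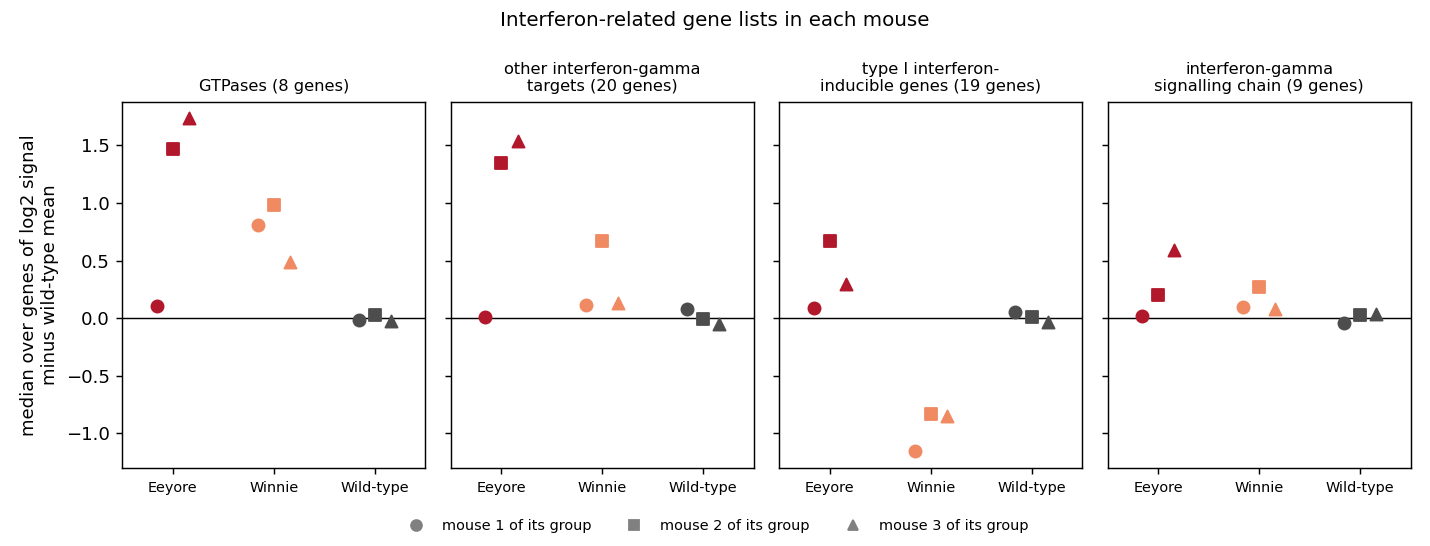
Median over the genes of each list of the log2 signal minus the wild-type mean (vertical axis) in each *Eeyore*, *Winnie* and wild-type mouse, with the symbol giving the mouse number. *Eeyore* mouse 1 lies near 0 for the GTPases (0.10) and for the other interferon-gamma targets (0.01), and the 3 *Winnie* mice lie above 0 for the GTPases (0.48 to 0.98) and below it for the type I interferon-inducible genes (-1.16 to -0.84).

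Type I interferons, made by most infected cells, use another receptor and induce an overlapping set of antiviral genes. Of 21 such genes 19 were tested. In *Winnie* mice, in which 3 of the GTPases rose, 13 of these 19 fell and 0 rose with limma (14 and 0 at an unadjusted p under 0.05; median log2 fold change -0.92). In *Eeyore* mice 7 rose and 1 fell (median 0.42), and between the strains 13 were higher and 0 lower in *Eeyore* than in *Winnie* mice (median 1.39). Over all tested genes 11.3% were higher and 11.9% lower in *Winnie* mice, and 14.0% and 16.6% in *Eeyore* mice. Between the strains these shares were 1.29% and 1.3%. The medians over all tested genes were -0.05 in *Winnie* mice, -0.04 in *Eeyore* mice and -0.01 between the strains. Neither count of 13 moved by over 1.5 times when any mouse was left out, whereas the 7 of *Eeyore* mice became 3 without *Eeyore* mouse 2, *Eeyore* mouse 3 or any single wild-type mouse.

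*Ifit1*, which binds foreign RNA, gave 3292, 3223 and 2314 in *Eeyore* mice, 583, 791 and 711 in *Winnie* mice, and 3976, 3365 and 2782 in wild-type mice. *Winnie* mice were below all other mice (log2 fold change against wild-type -2.28, SE 0.18, limma adjusted p = 1.71e-05), and *Eeyore* mice overlapped with wild-type mice (-0.20, SE 0.18, limma adjusted p = 0.419). *Rsad2* (viperin, an antiviral enzyme) fell in both strains, with log2 fold changes of -0.88 in *Eeyore* (limma adjusted p = 0.0014) and -2.28 in *Winnie* mice (limma adjusted p = 6.43e-06). *Usp18*, a brake on type I interferon signalling, was lower in *Winnie* mice (-1.73, limma adjusted p = 0.000973) and gave 0.47 in *Eeyore* mice (limma adjusted p = 0.188). *Oas1a* and *Bst2* rose in *Eeyore* mice, by 0.67 (limma adjusted p = 0.00345) and 0.97 (limma adjusted p = 0.0452), and so did *Zbp1*, a nucleic acid sensor, by 1.68 (limma adjusted p = 0.00622).

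Of 14 further interferon-inducible GTPases only 4 were tested, with 0 called in *Eeyore* mice by limma (2 higher at an unadjusted p under 0.05) and 1 in *Winnie* mice. That 1 was *Mx1*, an antiviral dynamin-like GTPase that type I interferon induces, which fell by 1.32 (SE 0.27, limma adjusted p = 0.00597) and differed between *Eeyore* and *Winnie* mice by 1.39 (limma adjusted p = 0.0191). *Ifi47*, an IRG gene, gave 1564, 5134 and 6713 in *Eeyore* mice, 2056, 3609.85 and 1925 in *Winnie* mice, and 2097, 1814 and 1501 in wild-type mice. *Eeyore* mouse 1 was again among the wild-type values, and the changes of 1.08 in *Eeyore* (limma adjusted p = 0.0752) and 0.44 in *Winnie* mice (limma adjusted p = 0.488) did not pass. With 14.0% of tested genes higher and 16.6% lower in *Eeyore* mice, and 11.3% and 11.9% in *Winnie* mice, nothing is read from counts of 4 genes.

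The genes that produce and relay interferon-gamma come before the GTPases in the pathway. Of 18 listed, 9 were tested, and 0 passed in *Winnie* mice with limma (2 were higher at an unadjusted p under 0.05), while 1 was higher and 1 lower in *Eeyore* mice. Over all tested genes 14.0% were higher and 16.6% lower in *Eeyore* mice, and 11.3% and 11.9% in *Winnie* mice, and nothing is read from counts this small. *Ifngr1* and *Ifngr2*, the receptor chains, gave 0.33 and 0.43 in *Eeyore* mice (limma adjusted p = 0.125 and 0.0863) and 0.45 and 0.16 in *Winnie* mice (limma adjusted p = 0.0595 and 0.542). *Jak1* and *Jak2* gave -0.05 and 0.02 in *Eeyore* mice and -0.17 and 0.12 in *Winnie* mice, none passing. *Irf1*, an interferon-regulatory factor that acts at the ISRE, gave 3372, 5095 and 7197 in *Eeyore* mice, 5546, 6379 and 4623 in *Winnie* mice, and 4024, 4095 and 3655 in wild-type mice. All *Winnie* mice were above wild-type mice and *Eeyore* mouse 1 was below them, and neither change passed (0.35 in *Eeyore* mice, limma adjusted p = 0.247, and 0.48 in *Winnie* mice, limma adjusted p = 0.13).

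*Il18*, which helps lymphocytes make interferon-gamma, fell in *Eeyore* mice by 0.37 (limma adjusted p = 0.0127). *Ptpn6*, a phosphatase that restrains cytokine receptors, rose there by 0.47 (limma adjusted p = 0.0455), and no gene of this list was called higher when any 1 mouse other than *Eeyore* mouse 1 was left out. *Ifng* itself gave signals of 48.5, 94.9 and 100.8 in *Eeyore* mice, 91.8, 57.3 and 83.1 in *Winnie* mice, and 93.5, 67.1 and 1.84 in wild-type mice. All are dim, with the groups overlapping. *Socs1*, the feedback inhibitor, gave 71.4, 142.5 and 129.8 in *Eeyore* mice, 173.7, 106.7 and 110.6 in *Winnie* mice, and 5.61, 84.0 and 55.5 in wild-type mice, with all *Winnie* mice above all wild-type mice. Neither gene passed the filter on dim probe sets, and neither was tested.

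Another list holds genes that target the GTPases to vacuoles or act after them. All 15 listed were tested, with 2 higher and 1 lower in *Eeyore* mice and 2 higher and 0 lower in *Winnie* mice, which for the higher genes is near the 14.0% and 11.3% over all tested genes in *Eeyore* and *Winnie* mice. The 2 higher genes became 1 in *Eeyore* mice without *Eeyore* mouse 2 or 3, *Winnie* mouse 1 or 3 or any wild-type mouse, and 1 in *Winnie* mice without *Winnie* mouse 1 or 2 or wild-type mouse 1 or 2. *Atg3*, an enzyme of the autophagy conjugation system that loads GTPases onto vacuoles, rose by 0.59 in *Eeyore* (SE 0.13, limma adjusted p = 0.00482) and by 0.59 in *Winnie* mice (SE 0.13, limma adjusted p = 0.00711). *Atg12*, of the same system, fell in *Eeyore* mice by 0.50 (limma adjusted p = 0.0156), and *Gabarap* rose there by 0.24 (limma adjusted p = 0.0443). *Sqstm1*, an adaptor that binds ubiquitin on vacuoles, rose in *Winnie* mice by 0.42 (limma adjusted p = 0.0281) and was lower in *Eeyore* than in *Winnie* mice (-0.53, limma adjusted p = 0.0431).

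**Figure D4:**
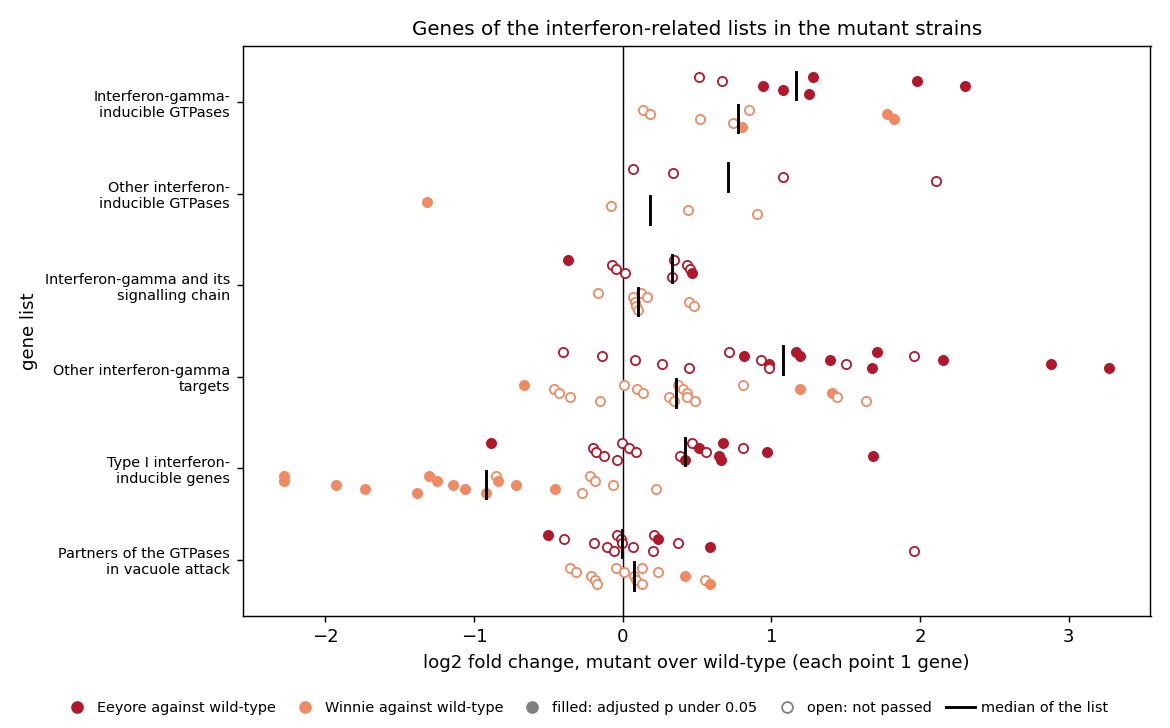
Log2 fold change against wild-type mice (horizontal axis) of each tested gene of 6 interferon-related lists, *Eeyore* above *Winnie* in each list, with filled points for a limma adjusted p under 0.05 and a black line at the list's median. The GTPases lie above 0 in both strains (medians 1.17 and 0.77 in *Eeyore* and *Winnie*), and the type I interferon-inducible genes lie mostly below 0 in *Winnie* mice (median -0.92).

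The signals of cell type markers differed between the groups, and in whole tissue fewer cells of a type and less RNA per cell cannot be told apart. The summed signal of the 11 myeloid markers with a probe set of their own was 10835 to 20091 in *Eeyore*, 10416 to 16429 in *Winnie* and 7897 to 8503 in wild-type mice. Of these, 10 were tested, with 5 of 10 higher in *Eeyore* and 3 of 10 in *Winnie* mice. Higher in both strains were *S100a8* and *S100a9*, calcium-binding proteins of neutrophils (3.58 and 4.77 in *Eeyore*, 4.14 and 5.06 in *Winnie* mice on the log2 scale), and *Cd14*, a lipopolysaccharide receptor (1.17 in *Eeyore* and 0.92 in *Winnie* mice). In wild-type mice *S100a8* gave 33.5, 12.3 and 85.6 and *S100a9* 13.2, 68.4 and 8.76, all under the filter signal of 85.9. The sizes of the *S100a8* and *S100a9* changes therefore rest on dim signals. In *Winnie* mice mouse 2 was far above the others, with *S100a8* at 360, 1895 and 285 and *S100a9* at 526, 2257 and 250. *Lyz2* and *Itgax* passed in *Eeyore* mice (1.03 and 0.97), whereas *Csf1r*, *Adgre1*, *Cd68*, *Cx3cr1* and *Itgam* passed in neither strain. The summed signal of 7 B and plasma cell markers was 32904 to 46407.5 in *Eeyore*, 26379 to 35375 in *Winnie* and 22939 to 29889 in wild-type mice, with 2 of 7 higher in *Eeyore* and 1 higher and 1 lower in *Winnie* mice. Of 14 T and NK cell markers 5 were tested, and their sum was 1308 to 2841 in *Eeyore*, 520 to 697 in *Winnie* and 1325 to 2031 in wild-type mice. *Gzma* and *Gzmb*, the granzymes of cytotoxic cells, fell in *Winnie* mice by 3.15 and 2.70 on the log2 scale, and 0 of the 5 passed in *Eeyore* mice with limma, nor at an unadjusted p under 0.05. *Winnie* signals were 141, 23.5 and 73.8 for *Gzma* and 15.1, 113.5 and 52.7 for *Gzmb*, mostly under the filter signal, so the sizes of these falls are uncertain. Over all tested genes 14.0% were higher and 16.6% lower in *Eeyore* mice, and 11.3% and 11.9% in *Winnie* mice. Nothing is read from the counts of the B and plasma cell markers.

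Smooth muscle markers fell in 8 of 8 cases in both strains, with a median of -1.53 in *Eeyore* and -1.10 in *Winnie* mice. The 12 colonic epithelium markers had medians of 0.10 in *Eeyore* and 0.08 in *Winnie* mice and summed signals of 354702 to 372293 and 323316 to 360261, against 342611 to 379937 in wild-type mice, which fits the labelled tissue. Single markers moved, with 5 higher and 1 lower in *Eeyore* and 3 higher and 1 lower in *Winnie* mice. The lower one was *Muc2* (-1.13 in *Eeyore* and -1.27 in *Winnie* mice), and *Krt19*, *Krt20* and *Vil1* rose in both strains. Of 7 endothelium markers 5 were tested, and 3 were lower in each strain (medians -1.43 in *Eeyore* and -1.08 in *Winnie* mice). From *Eeyore* mouse 1 to mouse 3 the summed signals of the myeloid, T and NK, B and plasma cell and epithelial lists all ran in the order of the GTPases, from lowest to highest. The smooth muscle sums (57510, 51989 and 53695) and endothelium sums (890.5, 947.0 and 733.4) did not. Sums weigh the brightest markers most. Medians over the tested markers of the log2 signal minus the wild-type mean were also taken. They kept the order of the GTPases for the T and NK (-0.17, 0.24 and 0.85) and B and plasma cell lists (0.10, 0.46 and 0.73). For the myeloid (0.32, 1.05 and 1.04) and epithelial lists (0.13, 0.12 and 0.17) they did not. Within the myeloid list *S100a8* and *S100a9* were highest in *Eeyore* mouse 1, at 523 and 703. *Winnie* mouse 2 was the highest of its strain in 7 of 8 GTPases and in the myeloid, T and NK and B and plasma cell sums. It was the lowest in the epithelial sum. The part of these shifts in the changes of the GTPases was not tested.

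Genes were also ranked by how like their profile over the 9 mice was to the median profile of the GTPases. The GTPases and all genes of the lists above, markers included, were left out, so their likeness was not ranked. Of the 11329 genes compared, the closest were *C1qb*, *C1qc*, *Fcer1g*, *Xdh*, *Nat8f4* and *Mpeg1*. Likeness was the root mean square difference of log2 signals after centring, which was 0.16 for *C1qb* and *C1qc*, 0.18 for *Fcer1g* and *Xdh*, 0.19 for *Nat8f4* and 0.22 for *Mpeg1*, against a median of 0.70 over all genes compared. *C1qb* and *C1qc* encode chains of complement C1q, *Fcer1g* the common gamma chain of Fc receptors and *Mpeg1* a pore-forming protein, all expressed by macrophages. Against wild-type mice, *C1qb* and *Fcer1g* passed in *Eeyore* mice (limma adjusted p = 0.0119 and 0.0146). *C1qc*, *Xdh*, *Nat8f4* and *Mpeg1* did not (0.0507 to 0.194), and none of the 6 passed in *Winnie* mice (limma adjusted p from 0.0792 to 0.297). *C1qb* gave 982, 2094 and 2754 in *Eeyore* mice, 1198, 1526 and 1413 in *Winnie* mice, and 809, 706 and 916 in wild-type mice, again with *Eeyore* mouse 1 lowest in its strain. When *Eeyore* mouse 1 was left out, a choice made after seeing the data, 3 of these 6 genes (*C1qb*, *C1qc* and *Fcer1g*) were still among the 6 closest.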

How the data were processed

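RNA of 9 mice, 3 in each group, was hybridised to Affymetrix mouse genome arrays, 1 a mouse. The authors deposited linear signal intensities of 45101 probe sets, with the 2%-trimmed mean of every array at 500; the algorithm that made the signals is not given in the sources used here. Signals under 1 (537 values) were raised to 1, log2 was taken, and 64 control probe sets were left out. Of 45037 probe sets, 34945 were annotated to 1 symbol, 932 to several and 9160 to none. The 22519 probe sets with a mean log2 signal at or above the median of 6.43 (a signal of 85.9) were tested, and the brightest probe set annotated to a gene alone stood for it (11453 tested genes).

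A model of the 3 group means over all 9 arrays was fitted in R 4.3.3 with limma 3.58.1 (lmFit, then eBayes with an intensity trend). Contrasts were *Eeyore* and *Winnie* against wild-type and *Eeyore* against *Winnie*, with Benjamini-Hochberg adjustment within each contrast over all 22519 and a threshold of 0.05. The number of arrays limits the precision. On simulated data with 200 of 22519 probe sets changed, the test recovered 40.3% of changes of 1 log2 unit and 83.3% of changes of 2 in *Winnie*, 35.8% and 75.8% in *Eeyore* against wild-type. In the data a far larger share was called, with 11.3% of genes higher and 11.9% lower in *Winnie* mice. In *Eeyore* mice these were 14.0% and 16.6%. The adjusted threshold depends on that share, so the recovery holds for the simulated setting only.

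The members and the gene lists were chosen with earlier results of these data known. Named were all members, up to 4 called genes a list and strain with the largest changes, and the main genes of the interferon-gamma chain. The 6 genes outside the members and all lists that were most like the members in profile were also named. Other genes named were chosen after their values were seen. One gene, *Ubd*, stands in 2 lists. Alternatives were other scalings, filters, variance models, probe set rules, a replicate block and leaving out each mouse. Promoter windows came from the RefSeq table of build GRCm38.p6, matched by symbol; none is printed for *Iigp1*, *Gbp4* and *Gbp6*. Plots used matplotlib 3.10.9 under Python 3.11.15.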

Additional observations from a re-analysis of the deposited data

Results flagged for a closer look

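Of 26 named interferon-related genes, mostly named because their changes were among the largest called in their list, 11 differed between the strains by the test of *Eeyore* against *Winnie* mice (limma adjusted p under 0.05; over all tested genes 1.29% were higher and 1.3% lower). Of the 8 GTPases 0 did, and 4 did without *Eeyore* mouse 1. The type I interferon-inducible genes among them were higher in *Eeyore* than in *Winnie* mice by 2.08 for *Ifit1* (limma adjusted p = 4.59e-05), 2.20 for *Usp18* (0.000562), 1.93 for *Oas2* (0.0024), 1.82 for *Bst2* (0.0116), 1.39 for *Rsad2* (0.000336) and 1.13 for *Oas1a* (0.000676) on the log2 scale, and *Mx1* was higher by 1.39 (limma adjusted p = 0.0191). Of the interferon-gamma targets, *Psmb9* was higher by 2.06 (limma adjusted p = 0.0444) and *B2m* by 1.11 (limma adjusted p = 0.00626). *Il18* and *Sqstm1* were lower in *Eeyore* than in *Winnie* mice, with differences of -0.46 (limma adjusted p = 0.026) and -0.53 (limma adjusted p = 0.0431). In all these differences the labelled background of the strains cannot be told apart from the *Muc2* allele. Most of the 26 genes were chosen by their changes on the same arrays. The count of 11 is therefore not a like comparison with the share over all tested genes or with the 8 GTPases.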

How the results depend on the processing

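The 8 GTPases lay above 0 against wild-type in both strains under the deposited scaling, quantile normalization and median centring; median centring moved the median of all tested genes to 0.28 in *Eeyore* and 0.36 in *Winnie* mice, so that its higher counts are relative to that shift. The count called in *Eeyore* mice, 6 of 8, was 3 without the intensity trend, 3 with the robust variance model and 3 with the mean over a gene's probe sets. The count in *Winnie* mice, 3 of 8, was 6 with median centring, 6 when fitted on the compared groups alone, 1 with the robust variance model and 0 without the intensity trend. Leaving out 1 mouse gave 3 to 8 in *Eeyore* against wild-type, 0 to 5 in *Winnie* against wild-type (1 without wild-type mouse 1 or 2) and 0 to 4 in *Eeyore* against *Winnie*. The cause of these moves was not tested. The mouse number as a replicate block left 6, 3 and 0 called in these 3 comparisons; no label pairs the mice, and same-numbered mice of different groups correlated at -0.00821 to 0.164 in their deviations from the group means.

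*Gbp6* in *Winnie* mice turned to -0.0017 with the mean over its probe sets. On leaving out 1 mouse, the differences of *Eeyore* against *Winnie* mice lay between -0.44 (without *Eeyore* mouse 3) and 0.84 (without *Eeyore* mouse 1) for *Gbp2*, and likewise between -0.017 and 0.795 for *Gbp6*, -0.074 and 0.58 for *Gbp7*, -0.032 and 1.07 for *Igtp*, -0.052 and 1.28 for *Iigp1*, and -0.25 and 0.56 for *Irgm2*. Of 152 single-gene values under alternatives in each comparison, 121 kept direction and call in *Eeyore* against wild-type, 127 in *Winnie* against wild-type and 142 in *Eeyore* against *Winnie*. Median centring raised the counts of the interferon-gamma targets to 16 in *Eeyore* and 7 in *Winnie* mice and of the signalling chain to 6 and 7. The *Eeyore* call of *Gbp2* was lost with the robust variance model alone (limma adjusted p = 0.0593), and those of *Iigp1* and *Irgm1* under none. By contrast, the *Winnie* calls of *Gbp2*, *Iigp1* and *Irgm1* were each lost under several alternatives. *Ifng* and *Socs1* were too dim to be tested.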
